A study of Caenorhabditis elegans with 2 samples.

Results

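Candidate piRNAs were examined in Caenorhabditis elegans as clusters of small RNA reads that are 21 nt wide, lie in the piRNA regions of chromosome IV and carry no annotation as a piRNA, as another non-coding RNA, as a transposon or as an exon. The rule took clusters whose start lies between positions 4500000 and 7000000 (first window) or 13500000 and 17200000 (second window), with no non-coding RNA, transposon or exon on their own strand and no coding exon on the opposite strand. It found 841 clusters of 51569 in all, 192 in the first window and 649 in the second. Width, position and annotation therefore chose them, and read counts were not part of the rule. Width is that of the joined overlapping reads, however, so clusters with several differing reads can be wider than 21 nt and fall outside it.

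The clusters came from whole worms of the strain fem-1, which is named for a sex-determination gene that germ cells need to become sperm. The series describes 2 libraries, 1 prepared to capture RNAs with a 5′ monophosphate and 1 treated with polyphosphatase to capture triphosphate-bearing RNAs as well; only the monophosphate library was analysed here. The labels state no age, growth temperature or allele. With 1 library there was no replicate and no test. Ranges in parentheses after a value are 95% limits, by Clopper-Pearson for shares, Poisson for counts and a conditional binomial for ratios, and cover counting error only. The deposited clusters held 1417144 reads of a selected length range, 1412353 of them on chromosomes, and coordinates are those of the deposited clusters. The sources used here name no genome build.

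The piRNAs of worms, called 21U-RNAs because most are 21 nt long and begin with U, guide the Piwi Argonaute PRG-1 in the germ line, where they help to silence foreign sequence. Each is transcribed on its own as a short capped precursor from a small gene, often with a conserved motif upstream, and is trimmed at both ends and methylated at its 3′ end. Most of these genes lie in broad regions of chromosome IV, in introns and between genes. First bases, upstream motifs and the sequences of the clusters were not analysed here, so the clusters are candidates by width and place alone.

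The unannotated 21 nt clusters were a large minority of the 21 nt signal in the windows. Of 2619 clusters of that width there, 1529 (58.4%, 56.5 to 60.3) carried a piRNA annotation, 841 (32.1%, 30.3 to 33.9) were the unannotated candidates, and 249 lay on exons, transposons or other RNAs. By reads the candidates were fewer, with 4181 of 25644 (16.3%, 15.9 to 16.8). The windows differed. Candidates made up 41.2% (36.7 to 45.8) of 21 nt clusters and 39.7% of their reads in the first window, where they outnumbered the 149 annotated clusters. In the second window, which held 1380 annotated clusters, they made up 30.1% (28.2 to 32.1) of clusters and 14.4% of reads. The deposited annotated clusters name 2105 piRNAs, which are only those with reads in this library. The RefSeq table for WBcel235 lists 15363 piRNA genes, 14714 of them on chromosome IV, whether seen here or not. These counts are therefore not alike, and the number of piRNAs in the annotation of the deposited list is not known. Whether the candidates are among the genes of the RefSeq table was not analysed here, because the build of the deposited positions is not known.

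Width set the unannotated RNAs of the windows apart from those elsewhere. Among the 1274 clusters of 18 to 26 nt in the windows that met the same annotation rule, 841 (66.0%, 63.3 to 68.6) were 21 nt wide, against 90 each at 20 and 22 nt. Outside the windows 730 of 4091 such clusters (17.8%, 16.7 to 19.1) were 21 nt wide, as many as at 18 nt. The peak was alike in both windows, at 64.2% in the first and 66.6% in the second. Since the rule itself used width and position, these shares describe the candidates and are not a test of them. By reads the share of 21 nt was 46.5% of 8994 in both windows, 64.4% in the first and 43.8% in the second. Clusters of 22 nt had 2630 reads, 1771 of them in 1 cluster, and those of 24 and 25 nt had 985 and 607.

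**Figure D1:**
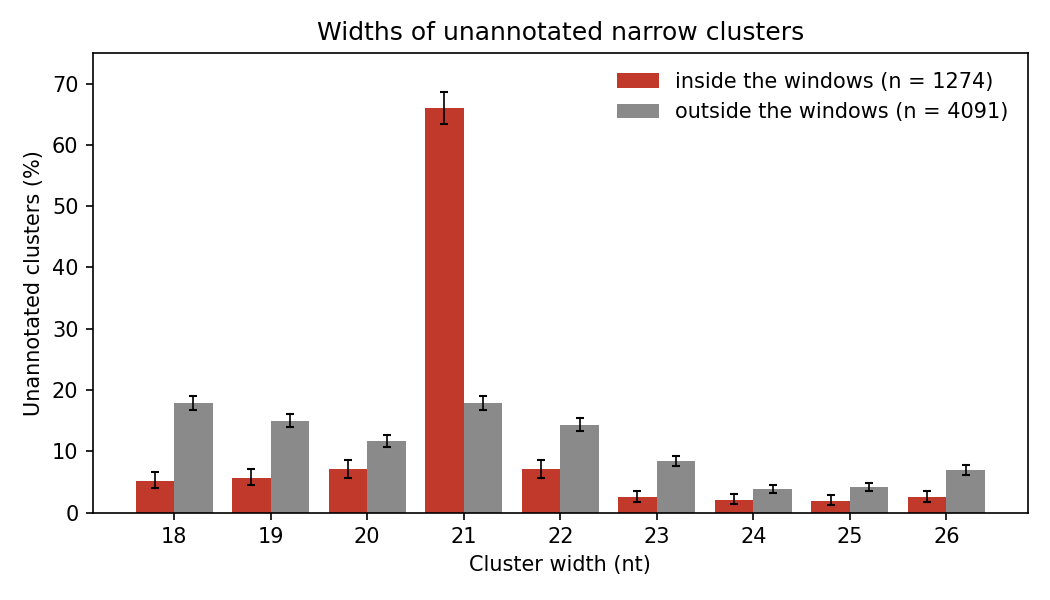
Width in nt (x axis) against the share of unannotated clusters of 18 to 26 nt in percent (y axis), inside (red, n = 1274) and outside (grey, n = 4091) the chromosome IV windows; bars are shares and error bars exact 95% binomial intervals. The bar at 21 nt reaches 66.0% inside the windows and 17.8% outside.

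Per length of chromosome the candidates were 17.5 times as frequent (15.8 to 19.3) as unannotated 21 nt clusters in the other 94.0 Mb, counted to the last cluster of each chromosome. There were 76.8 per Mb (66.3 to 88.5) in the first window and 175 per Mb (162 to 189) in the second, a ratio of 2.28 (1.94 to 2.70). The remaining parts of chromosome IV held 11.8 per Mb (9.87 to 14.0) and the other chromosomes 7.22 per Mb (6.65 to 7.82), from 2.88 on X to 10.2 on I. At 20 and 22 nt together the windows held 29.0 clusters per Mb and the sequence outside 11.3. On a sequence named markov in the deposited list, whose nature the sources do not give, 21 nt clusters numbered 105, or 1.05 per Mb (0.859 to 1.27).

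Density was higher inside the window limits than just outside, but the counts do not place the change at the limits themselves. Over 0.5 Mb inside and outside each limit there were 22 and 10 clusters at the start of the first window, 13 and 6 at its end, and 68 and 3 at the start of the second. In the first window only 3 candidates lay in the 0.335 Mb before the first annotated 21 nt piRNA cluster. A further 13 lay in the 0.505 Mb after the last such cluster. The first 0.104 Mb of the second window, before its first annotated cluster, held 2. The counts at the limits of the first window are small, and the differences there were not tested. The members nearest to each limit started at 4726644, 6999509, 13543895 and 17199397 and had 1 read each, and the nearest unannotated 21 nt clusters outside started at 4447456, 7083627, 13489234 and 17202726, with 1, 1, 1 and 2 reads. The last 0.5 Mb of the second window held 65, and the last 0.282 Mb of IV beyond it held 12, or 42.5 per Mb (21.97 to 74.3), which is above the value for chromosome IV outside the windows as a whole.

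Along the windows the candidates were found almost throughout. In the second window each of the 37 bins of 0.1 Mb held at least 2, with a median of 18 and a maximum of 30 in the bin that starts at 14.6 Mb. In the first window 22 of 25 bins held any, with a median of 8 and a maximum of 19 in the bin at 5.0 Mb. That bin held only 1 annotated 21 nt piRNA cluster. Counts of candidates and of annotated clusters per bin had Pearson r = 0.51 and Spearman rho = 0.68 over the 25 bins of the first window, and r = 0.68 and rho = 0.63 over the 37 bins of the second. Counts of candidates and of unannotated clusters of other narrow widths had r = 0.16 and rho = 0.32 in the first window, and r = 0.38 and rho = 0.40 in the second. Clusters of other narrow widths were also fewer, at 433 in both windows against 1529 annotated 21 nt clusters. All bins share 1 library and the limits of what can be placed on the genome, so these values are descriptions. In the first window 26 candidates lay in the 10 bins without an annotated 21 nt cluster, and 14 bins held more candidates than annotated clusters, against 1 bin of the second window.

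**Figure D2:**
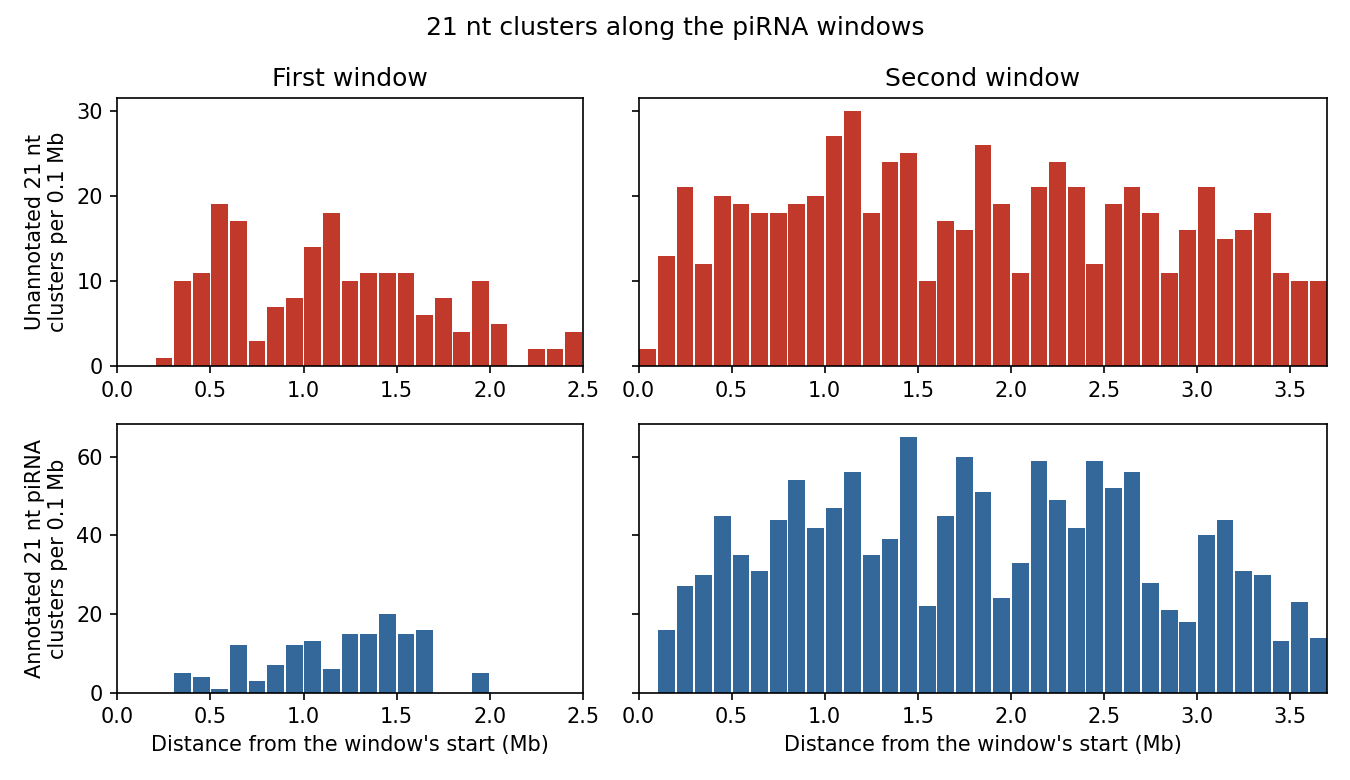
Number of clusters per 0.1 Mb (y axis) against the distance from the start of each window in Mb (x axis), for unannotated 21 nt clusters (red, top) and annotated 21 nt piRNA clusters (blue, bottom); the vertical scales of the rows differ. Candidates reach 19 per bin in the first window and 30 in the second, where annotated clusters reach 65.

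Most candidates had few reads. The median candidate had 1 read, as did the median of all 51569 clusters in the list. Of the 841 candidates 463 (55.1%) consisted of a single read, and 378 (44.9%, 41.5 to 48.4) had more than 1. Annotated 21 nt piRNA clusters in the same windows had a median of 3 reads, and 67.2% (64.8 to 69.5) of them had more than 1. Of the unannotated 21 nt clusters outside the windows 14.0% (11.5 to 16.7) had more than 1 read. Candidates thus lay between these sets, with intervals that do not meet. At 10 reads or more there were 51 candidates (6.06%, 4.55 to 7.90), 309 annotated clusters (20.2%, 18.2 to 22.3) and 9 clusters outside the windows (1.23%, 0.565 to 2.33). Depth above that outside the windows was not particular to 21 nt. Among unannotated clusters in the windows, more than 1 read was found in 54.4% (43.6 to 65.0) at 22 nt and 6.67% (2.49 to 13.9) at 20 nt. Across all other narrow widths the share was 30.9% (26.6 to 35.5). At 10 reads or more, 22 nt clusters had 22.2% (14.1 to 32.2) and all other narrow widths 9.70% (7.08 to 12.9). All 49 of the 22 nt clusters above 1 read held more than 1 distinct sequence, against 90 of the 378 candidates above 1 read. Width is that of joined overlapping reads, so a deep 22 nt cluster need not consist of 22 nt RNAs. The windows were alike in this respect, with 46.4% (39.1 to 53.7) of candidates above 1 read in the first and 44.5% (40.7 to 48.4) in the second.

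**Figure D3:**
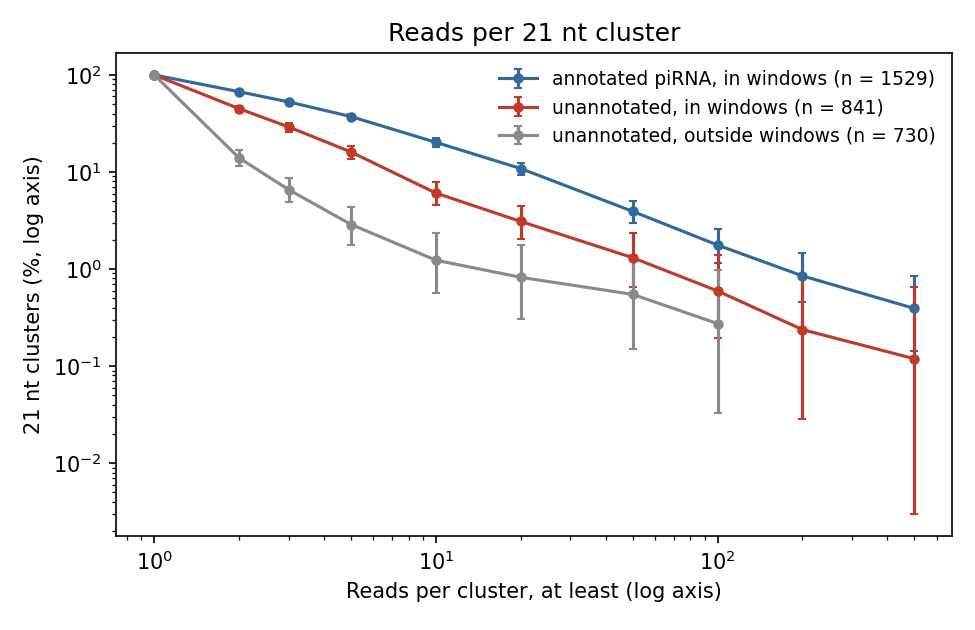
Share of 21 nt clusters in percent (y axis, log scale) that had at least the number of reads on the x axis (log scale), for annotated piRNA clusters in the windows (blue, n = 1529), unannotated clusters in the windows (red, n = 841) and unannotated clusters outside (grey, n = 730); error bars are exact 95% binomial intervals, and points at 0 are left out. At 2 reads the shares are 67.2%, 44.9% and 14.0%.

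Reads were concentrated in few candidates. The leading 10 held 1678 of the 4181 reads (40.1%), without them 2503 were left, and 21 candidates sufficed for 50% of the reads. The first was a cluster at IV 13747780 to 13747800 on the - strand with 500 reads (457 to 546), in sequence with no gene annotation. The second, at IV 14667756 to 14667776 on the + strand, had 429 reads (389 to 472) and lay in an intron of Y57G11C.37, named anoh-2 in the WBcel235 table, on the strand of the gene. Together these had 22.2% of all candidate reads.

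The next were at most 145 reads deep. A cluster at IV 16041047 to 16041067 (+) had 145 reads (122 to 171) and one at IV 15495704 to 15495724 (+) had 127 (106 to 151), all of the same sequence. A cluster at IV 16060649 to 16060669 (-), opposite an intron of Y105C5B.23, had 119 (98.6 to 142). These 5 lay 221 to 1144 nt from the nearest annotated piRNA cluster, whose counts were only 2 to 14 reads. In the first window the leading candidates were IV 6305215 to 6305235 (+) with 80 reads (63.4 to 99.6), IV 5288906 to 5288926 (+) with 65 and IV 6433903 to 6433923 (+) with 56. They stood farther from annotated piRNAs, at 95126, 4787 and 13285 nt.

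Of the remaining 7 among the leading 15, 1 stood apart in its edits. It lay at IV 14056327 to 14056347 (-), opposite an intron of Y37A1B.5 and a CELE2 repeat, and had 64 reads with 64 edits to the genome and a placement uniqueness of 25. The other 6 had between 40 and 80 reads and at most 1 edit each. They were the clusters that start at 15758680 (80 reads), 16577449 (69 reads, in an intron of Y51H4A.8), 16207178 (46 reads), 13746856 (44 reads), 15757832 (43 reads) and 5447931 (40 reads, in an intron of mgl-3, which encodes a metabotropic glutamate receptor). The cluster at 16577449 lay 223 nt from an annotated piRNA cluster with 1255 reads, on the other strand.

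Clusters with 1 distinct sequence were similarly or more frequent among candidates than among annotated piRNAs of like depth. The deposited list counts distinct sequences per cluster, and 751 of 841 candidates (89.3%, 87.0 to 91.3) had 1. Because this share falls with depth, clusters of like read number were compared. At 2 to 5 reads 81.8% of candidates (76.7 to 86.2; n = 275) had 1 distinct sequence, against 75.7% (71.9 to 79.3; n = 548) of annotated clusters and 70.1% (59.4 to 79.5; n = 87) of those outside the windows. At 6 to 20 reads the shares were 71.8% (60.5 to 81.4; n = 78) and 63.7% (58.3 to 68.9; n = 328) for candidates and annotated clusters, and above 20 reads 28.0% (12.1 to 49.4; n = 25) and 29.1% (22.04 to 37.1; n = 151). Outside the windows the last 2 classes held only 9 and 6 clusters, with shares of 44.4% (13.7 to 78.8) and 33.3% (4.33 to 77.7). In each of these classes the intervals of candidates and annotated clusters overlap, which does not show that their shares are equal.

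Edits to the genome were rare in the candidates, and 810 (96.3%, 94.8 to 97.5) had none. Among clusters of 1 read, 98.5% of candidates (96.9 to 99.4), 99.0% of annotated clusters (97.7 to 99.7) and 93.2% of those outside the windows (90.9 to 95.0) were free of edits. On the markov sequence 13.3% (7.49 to 21.4) of all 21 nt clusters were. Candidates had 2.63 edits per 100 reads, but 64 of their 110 edits were in the cluster opposite Y37A1B.5. Without it the value was 1.12, beside 1.09 in annotated clusters (1.04 without the 1 cluster with the most edits there). Outside the windows it was 18.1, and 11.5 without the cluster with the most edits. At least as many edits as reads were found in 8 candidates, 5 annotated clusters and 58 clusters outside the windows.

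Placement was less certain for candidates than for annotated piRNAs. The deposited uniqueness value has no stated scale, but in 39412 narrow clusters of 1 distinct sequence it never exceeded 2 per nt of width, which is 42 at 21 nt. It was at least 40 in 742 candidates (88.2%, 85.9 to 90.3), in 93.6% of annotated clusters (92.2 to 94.8) and in 84.8% of unannotated clusters outside the windows (82.0 to 87.3). Values under 10 were given for 69 candidates and 32 annotated clusters. Reads of these could have come from a near-identical place, so the counts of such candidates are uncertain.

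Candidates came from both strands in like number, 414 from the + and 427 from the - strand (49.2% +, 45.8 to 52.7). Annotated 21 nt clusters were 47.7% + (45.1 to 50.2). Nor did a candidate share the strand of its nearest annotated piRNA more often than not: it did in 427 of 841 (50.8%, 47.3 to 54.2), and in 175 of the 341 within 500 nt (51.3%, 45.9 to 56.7).

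Within the windows many unannotated narrow clusters, the candidates among them, lay near annotated piRNAs. The median distance to the nearest annotated piRNA cluster of any width was 713 nt, and 341 (40.5%, 37.2 to 44.0) lay within 500 nt. For the 433 unannotated clusters of other narrow widths in the windows the median was 1024 nt and the share within 500 nt 32.8% (28.4 to 37.4). In the second window alone the shares were 49.6% (45.7 to 53.5) and 40.2% (34.8 to 45.7), and in the first 9.90% (6.06 to 15.02) and 10.3% (5.24 to 17.7). Over both windows, 34.4% (24.7 to 45.2) of the 20 nt clusters and 35.6% (25.7 to 46.3) of the 22 nt clusters lay within 500 nt. These intervals overlap that of the candidates. The medians in the first window were 3651 nt for candidates and 10278 nt for the other widths, and 34.9% (28.2 to 42.1) and 24.3% (16.5 to 33.5) lay within 2000 nt, with overlapping intervals. At 100 nt or less the order was not kept in the windows as a whole, with 10.7% of candidates and 11.1% of the other widths. At 30 nt or less the other widths were ahead, at 8.5% against 3.7% of candidates. The share with more than 1 read did not fall steadily with distance. It was 45.7% (40.4 to 51.2) of the 341 candidates within 500 nt, 48.1% (43.0 to 53.2) of the 387 beyond that and up to 5000 nt and 31.9% (23.4 to 41.3) of the 113 beyond 5000 nt.

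**Figure D4:**
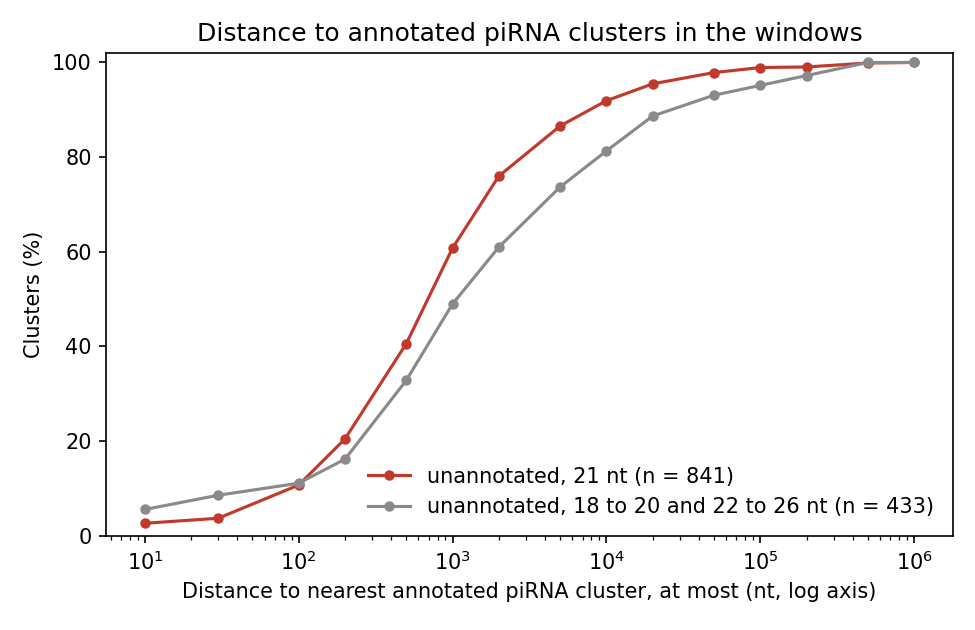
Share of clusters in percent (y axis) whose nearest annotated piRNA cluster lay at most the distance in nt on the x axis (log scale), for unannotated clusters of 21 nt (red, n = 841) and of other widths from 18 to 26 nt (grey, n = 433) in the windows. At 30 nt the values are 3.7% at 21 nt and 8.5% at other widths. The curves are close at 100 nt and reach 40.5% and 32.8% at 500 nt.

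Of the candidates nearest to a piRNA on the same strand, 5 lay 2 to 16 nt away, with 1 read each. They neighboured 21ur-1694 at 2 nt, 21ur-5185 at 3 nt (in an intron of srz-31, of a chemoreceptor family), 21ur-183 at 6 nt, 21ur-492 at 7 nt and 21ur-1208 at 16 nt, whose clusters had 1, 17, 5, 10 and 2 reads. Reads that overlapped would have been joined to 1 cluster, so overlapping products of the same strand are not seen. The median distance between a candidate and the next was 1630 nt, against 666 nt between annotated 21 nt clusters.

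The surroundings of candidates and annotated piRNAs were alike in the share of introns. Introns held 258 candidates (30.7%, 27.6 to 33.9), 123 on the strand of the gene and 135 on the other. Among the 1495 annotated 21 nt clusters without a coding exon on either strand, 438 (29.3%) lay in introns. Outside the windows 20.4% (17.5 to 23.5) of unannotated 21 nt clusters did. Of unannotated clusters of other narrow widths inside the windows, 25.4% (21.4 to 29.8) did, an interval that overlaps that of the candidates. A further 185 candidates (22%, 19.2 to 24.95) lay within 1000 nt of a gene and 398 (47.3%, 43.9 to 50.8) had no gene annotation, compared with 16.7% (14.8 to 18.6) and 54.0% (51.5 to 56.6) of the annotated clusters. More than 1 read was found in 52.0% (42.8 to 61.1) of candidates in introns of the same strand, 44.4% (35.9 to 53.2) of those opposite introns, 46.7% (41.7 to 51.8) of those without gene annotation and 36.8% (29.8 to 44.1) of those in gene flanks. All 4 intervals overlap, and in the first window alone the candidates opposite introns had the highest share, at 58.3% (40.8 to 74.5).

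Intronic candidates were spread over 156 genes, 101 of which held 1. Most were in eps-8, which encodes an adaptor of actin and receptor signalling, with 9 candidates and 23 reads, 5 in sense and 4 in antisense. Y57G11C.32 (talp-3 in the WBcel235 table) and the forkhead transcription factor gene fkh-7 held 6 each, with 18 and 14 reads. Y37A1B.5, tag-64 and Y37A1A.2 held 5 each, and Y57G11C.37, H16O14.2, jac-1, which encodes a p120-catenin of cell junctions, and H08M01.2 held 4 each, as did soc-2 and tag-273, which had fewer reads (9 and 6). Of the 440 reads in Y57G11C.37, 429 came from its leading cluster, and of the 70 in Y37A1B.5, 64 came from the cluster with many edits.

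A small set of candidates lay opposite to annotated piRNAs. There were 25, all in the second window, with 45 reads in total, at most 11 reads in any and no edits. Of these 17 overlapped a cluster of the annotated piRNA itself, whose read counts ran from 1 to 696 with a median of 7. Such overlap was not particular to the candidates. Among the 433 unannotated clusters of other narrow widths in the windows, 23 overlapped or touched an annotated piRNA cluster on the other strand, against 17 of the 841 candidates. Overlap with any cluster on the other strand was rare in general, at 29 candidates (3.45%, 2.32 to 4.91) and 44 annotated 21 nt clusters (2.88%, 2.099 to 3.84).

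The offset of these pairs was measured after their positions had been seen, as the span from the 5′ end of the piRNA to the 5′ end of the cluster opposite. In the 14 pairs of a candidate and an annotated cluster of 21 nt, 5 had a span of exactly 30 nt, so that the RNAs shared 12 bases at their 3′ ends. These 5 candidates, which start at 14391398, 15163569, 15348097, 15781969 and 15795064, had 1 read each, and the piRNAs 1, 3, 33, 19 and 8 reads. The last had a uniqueness of 2, the others 42. A further 2 pairs had spans of 26 and 29 nt, and 5 had spans from 8 to 14 nt. Unannotated clusters of other narrow widths, 433 in all against 841 candidates, formed 18 such pairs. Of these, 15 had spans of 26 to 31 nt and shared 10 to 13 bases. None of the 12 pairings among annotated piRNA clusters, which count a pair of 21 nt clusters from each side, fell in that range. With 14 and 18 pairs, nearly all of 1 read, the spans are a description of few molecules.

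**Figure D5:**
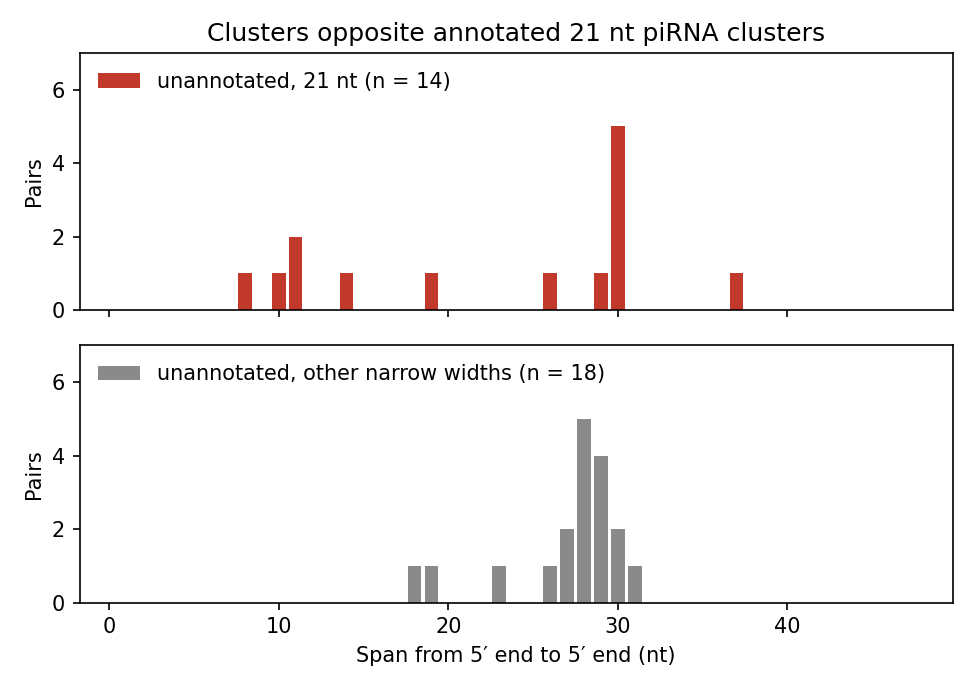
Number of pairs (y axis) by the span in nt from the 5′ end of an annotated 21 nt piRNA cluster to the 5′ end of an unannotated cluster on the opposite strand (x axis), for clusters of 21 nt (red, n = 14) and of other widths from 18 to 26 nt (grey, n = 18). Of the 21 nt pairs 5 lie at 30 nt, and 15 of the others lie between 26 and 31 nt.

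Transcripts of the piRNA pathway left few reads in this library. Of 18 genes on a list of piRNA factors 16 were found in the WBcel235 table (tofu-3 and tofu-8 were not), and 15 had reads in sense of their exons and 10 in antisense. prg-1, the Piwi Argonaute, had 25 sense and 6 antisense reads, snpc-4, a factor of piRNA gene transcription, had 10 and 3, and henn-1, the methyltransferase of the 3′ end, had 1 sense read. tofu-4 had no sense read and 1 antisense read. These are fragments in a small RNA library and not levels of mRNA.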

How the data were processed

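Whole worms were extracted with TRIZOL and libraries followed the small RNA method of Illumina, per the labels' protocols. Bowtie2 2.1.0 is listed as a tool, per the submitters' processing notes. The sources used here name no build, annotation release, trimming or filter. The clusters, deposited by the authors, carry raw read counts per cluster of overlapping reads of the monophosphate library, to which its name and its 1 supporting library point. A deposited entropy score was not used. The name of the deposited list limits reads to 18 to 26 nt. Longer or shorter reads of the library are thus not in the total.

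Cluster width stood in for read length, although joined reads that differ can make a cluster wider than any of them. Distances are the bases between clusters. A class of place was taken from the deposited annotation, with introns ahead of flanks of 1000 nt. Members, comparison sets, gene list and alternatives were chosen with earlier results of these data known. Named were the 15 members with the most reads, those nearest to the window limits, the 10 intron hosts with the most members (with those tied at the last place), the 5 members nearest to a piRNA on their strand, and the listed pathway genes. Gene names not in the deposited list came from the WBcel235 table; 2102 of 2105 piRNA identifiers matched a name. Of the 156 host genes, 144 were found in that table. Shares and counts were computed with Python 3.11.15, pandas 2.3.3 and SciPy 1.17.1, and the rule and distances were tested on simulated data. The sources name no molecular identifiers, so reads may be copies of 1 molecule. Alternatives changed window limits, width, annotation, reads, edits, uniqueness, distinct sequences and leading clusters, 1 at a time.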

Additional observations from a re-analysis of the deposited data

Results flagged for a closer look

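A column of the deposited list that no comparison used, the count of conversion events, held 4 events in 3 of the 841 candidates. That was above a preset floor of 3 counts, which is a setting and does not make 4 an excess. The candidates had 4181 reads. Annotated 21 nt piRNA clusters had 10 events in 9 clusters with 20974 reads in the set. Unannotated 21 nt clusters outside the windows had 109 events in 7 clusters with 1366 reads in the set.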

How the results depend on the processing

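Of 71 values under the alternatives, 48 stayed within the interval of the main value and 23 moved beyond it. For the number of candidates, values within 1.5 times the main value counted as staying. Some moves follow from the setting itself, such as fewer reads in a subset or a larger share at a longer distance. Most alternatives also share most of their clusters with the main set, so the tally does not measure robustness. A change of direction was defined only for the density ratio, as a value below 1, and 0 of its 10 alternatives had it. Since the rule itself used width and position, that is not a test. The strand share lay between 49.1% and 50.8% under all 10 alternatives run for it. The density ratio of 17.5 became 19.8 with windows cut to the span of annotated 21 nt piRNA clusters, 14.4 with windows widened by 0.5 Mb, 8.62 at 20 to 22 nt, 15.2 without introns and 56.2 at 2 reads or more, where 378 candidates with 3718 reads were left. The 4181 reads became 6925 at 20 to 22 nt, 2723 without introns, 2657 without edited clusters, 1851 at a uniqueness of 42, 1952 with 1 distinct sequence and 2503 without the leading 10. The share with more than 1 read fell to 38.9% at a uniqueness of 42 and 38.3% with 1 distinct sequence. The share of 21 nt among narrow clusters was 62.8% with wider windows, 80.1% when 20 to 22 nt were counted, 73.8% at 2 reads or more, 69.6% without edited clusters, 69.9% with 1 distinct sequence and 83.1% at a uniqueness of 42, a value that no narrower cluster of 1 distinct sequence reached. The share near an annotated piRNA was 10.7% at 100 nt and 76.0% at 2000 nt. The share with more than 1 read has no value at 2 reads or more. No paired analysis was possible because 1 library was analysed. With 463 candidates of 1 read, depth limits every statement on single candidates.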

Other observations

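Opposite-strand overlap also occurred among the candidates themselves, with 8 of the 841 overlapping another candidate. Low-complexity or simple repeats were annotated at 11 candidates with 22 reads, and a transposon on the opposite strand at 15 candidates with 86 reads and 66 edits, 64 of each in the cluster at IV 14056327 to 14056347.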
